A study of Mus musculus with 3 samples.

Results

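Haem, iron and ferritin handling was followed through 10 genes: Hmox1, Cd163, Slc40a1, Slc48a1, Fth1, Ftl1, Tfrc, Blvrb, Hba-a1 and Hbb-bs. They were taken by symbol from the 55357 genes of the deposited count matrices, and each symbol matched 1 row. The tumours were grown from LLC1, the Lewis lung carcinoma line of the mouse, placed in the marrow of the right tibia of animals 8 weeks old and collected 14 days later. The hosts of the Mfn2 library were DMP1-Cre Mfn2-/- mice, those of the Rhot1 library were DMP1-Cre Rhot1-/- mice, and those of the WT library were wild-type mice. Dmp1 is expressed in osteocytes and late osteoblasts, so the deletion lies in the host's bone and not in the injected tumour cells, which came from the same line in every group. Mfn2 encodes mitofusin 2 of the outer mitochondrial membrane, and Rhot1 encodes Miro1, which couples mitochondria to motor proteins. Each group was 1 library of live-sorted cells pooled from 3 mice. With 1 library per genotype there is no replicate check, no test was possible and no p-value is given. The intervals below are exact 95% intervals that cover counting error only.

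Haem released from haemoglobin is opened by haem oxygenase to biliverdin, carbon monoxide and iron. Biliverdin is then reduced to bilirubin, and the iron is stored inside ferritin shells or leaves the cell through ferroportin. Macrophages carry most of this traffic in the body because they take up aged red cells. Transferrin receptor brings iron into dividing cells, tumour cells among them.

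Several of these mRNAs are known to carry an iron-responsive element, a hairpin whose CAGTGN loop is bound by iron regulatory proteins when iron is scarce. The sites are shown because the ferritin, ferroportin and transferrin receptor values below come from mRNAs that share this control element. The loop CAGTGN, with a C set off from it by 5 bases on its 5′ side, was searched on the sense strand of GENCODE M21 transcripts (GRCm38, the build called mm10), with the 5 bases on either side of the loop required to pair, G with T allowed. Each sequence runs 5′ to 3′ on the mRNA, written with T, and the capitals mark the loop.
Fth1, 5′ UTR, chr19:9982732-9982761, plus strand: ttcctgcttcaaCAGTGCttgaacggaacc
Ftl1, 5′ UTR, chr7:45459778-45459807, minus strand: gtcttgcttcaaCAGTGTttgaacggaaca
Slc40a1, 5′ UTR, chr1:45925464-45925493, minus strand: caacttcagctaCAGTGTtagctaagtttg
Tfrc, 3′ UTR, chr16:32631219-32631248, plus strand: aattatcggaagCAGTGCcttccataatta
Tfrc, 3′ UTR, chr16:32631598-32631627, plus strand: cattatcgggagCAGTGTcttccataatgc
Tfrc, 3′ UTR, chr16:32631663-32631692, plus strand: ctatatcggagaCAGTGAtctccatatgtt
Tfrc, 3′ UTR, chr16:32631710-32631739, plus strand: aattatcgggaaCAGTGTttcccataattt
Fth1, Ftl1 and Slc40a1 each held 1 such site in the 5′ UTR and Tfrc held 4 in the 3′ UTR, and these were the sites found among the 10 genes. Over all coding genes, taking the transcript with the longest coding sequence, 0.0931% of 20409 5′ UTRs and 0.505% of 20587 3′ UTRs held the motif. The 10 genes were searched over all their complete coding transcripts, a wider search than that behind these shares. A match is a description of the letters and not of binding.

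The 3 libraries held 9393 to 10016 barcodes and 112088653 to 118223251 UMIs (unique molecular identifiers, 1 per captured mRNA molecule). After filters and the removal of called doublets, 9560 Mfn2, 9138 Rhot1 and 9041 WT cells were kept, and 20 to 35 barcodes were shared by any pair of libraries. Cells were grouped into 23 clusters without using the 10 genes or other globins, and clusters were named from marker lists. Tumour-like cells numbered 5813, 5787 and 4374 in the Mfn2, Rhot1 and WT libraries, and macrophage-like cells numbered 1273, 1093 and 1275. Clusters 9 and 11 scored highest for tumour markers but stayed unnamed and were left out of the tumour-like class. Cluster 9 held 230 Mfn2, 236 Rhot1 and 782 WT cells, and cluster 11 held 342, 328 and 201. The 2 macrophage-like clusters were cluster 2, with Ccl8, C1qa and Mrc1 among its leading genes, and cluster 10, with Hmox1, Arg1 and Mmp12. Leading genes were ranked against the other classes and do not order these 2 clusters. Cluster 10 had median depths of 2511, 1460.5 and 2534 UMIs in the Mfn2, Rhot1 and WT libraries. Its macrophage-like score of 0.725 was close to its tumour-like score of 0.716, where cluster 2 had 0.987 and 0.401. In other settings a cluster with Hmox1, Arg1 and Mmp12 among its leading genes stayed unnamed. These included resolution 2, use of the 10 genes in clustering, and doublets kept. Cluster 15, led by interferon-induced genes such as Rsad2 and Cxcl10, scored highest for macrophage markers but stayed unnamed because its leading genes held Pf4, of the megakaryocyte list, and no macrophage marker. Epcam was at 0 in the tumour-like cells of every library, so this label rests on the other tumour markers. Mfn2 and Rhot1 mRNA stood at 20.3 and 23.7 CPM over all kept cells of the Mfn2 library, at 20.7 and 25.2 CPM in the Rhot1 library, and at 16.2 and 23.1 CPM in the WT library. Dmp1 had 6, 3 and 9 UMIs in the Mfn2, Rhot1 and WT libraries, so the cells in which the deletion acts were close to absent and these values do not check the genotype.

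Levels are UMIs of the gene per 1000000 UMIs of all cells of a class in a library (CPM). A gene was counted as higher or lower when it reached 10 CPM in 1 library of the comparison and its ratio passed 1.5-fold. In macrophage-like cells all 10 genes reached that level, and 4 were higher in the Mfn2 library than in the WT library, Hmox1, Cd163, Hba-a1 and Hbb-bs, while none was lower. Of all 8205 genes compared there, 2.91% were higher and 2.24% were lower. In the Rhot1 library 3 of the 10 were higher than in the WT library, Cd163, Hba-a1 and Hbb-bs, and none was lower, beside 2.55% of genes higher and 1.87% lower. Hba-a1 and Hbb-bs stood at 3.23 and 7.33 CPM in WT cells. They were thus compared only through their level in the Mfn2 or Rhot1 library and could not have been called lower. In the Rhot1 library 1 cell held 84.9% of the Hba-a1 UMIs and 91.5% of the Hbb-bs UMIs of the class. The median log2 ratio of the 10 genes was 0.47 for the Mfn2 library and 0.25 for the Rhot1 library, against 0.02 and 0.08 for all genes compared. Without the globins the median was 0.34 for the Mfn2 library and 0.16 for the Rhot1 library. Both comparisons share the WT library.

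**Figure D1:**
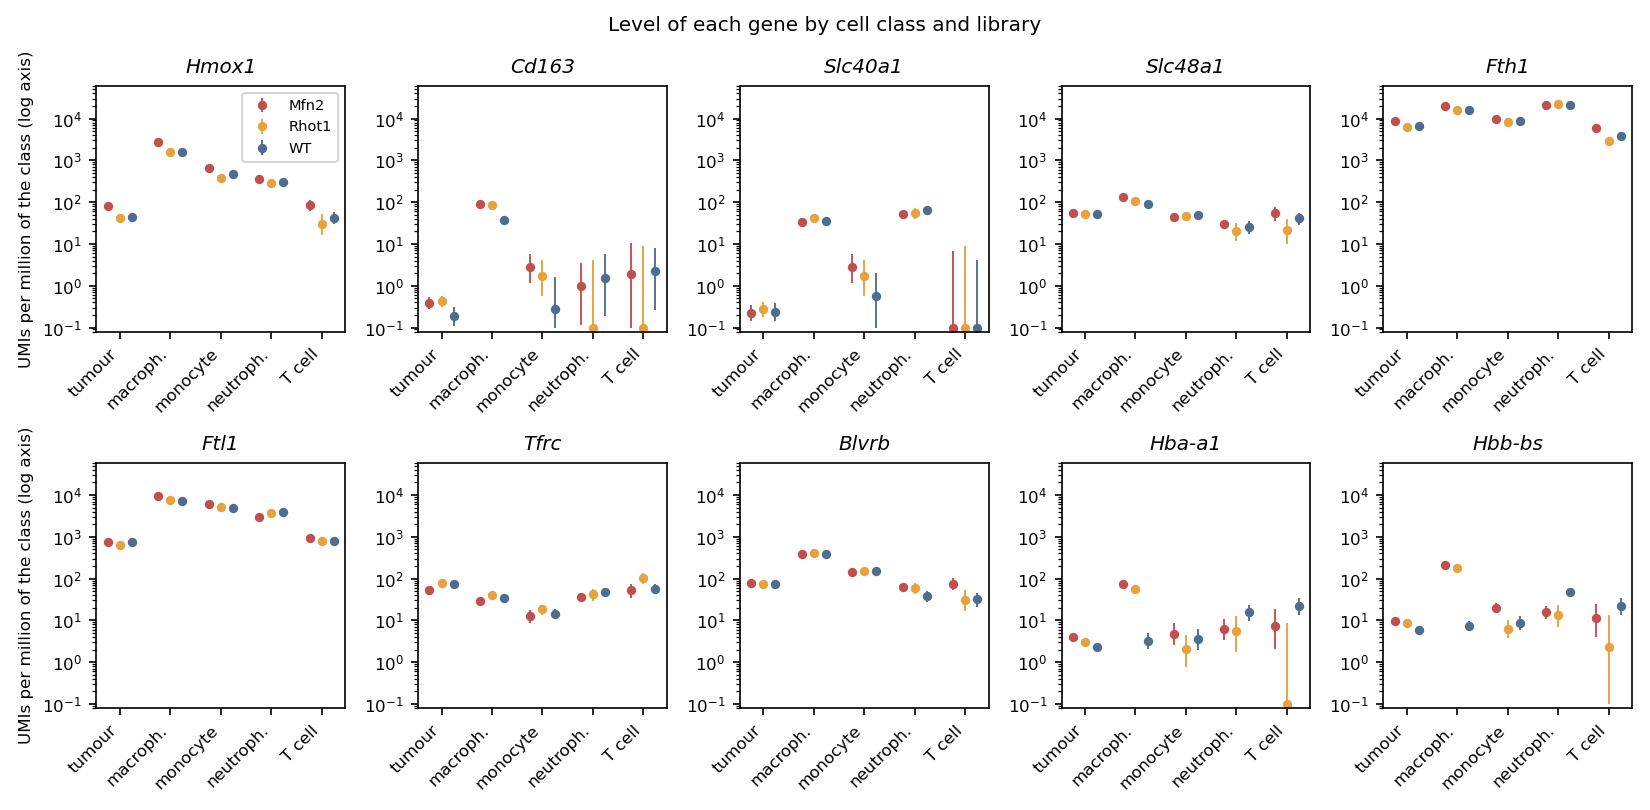
Level of each of the 10 genes, in CPM of the class on a log axis, in 5 cell classes of the Mfn2, Rhot1 and WT libraries; bars are exact 95% Poisson intervals, and a level of 0 is drawn at the foot of the axis. Hmox1 and Blvrb were highest in macrophage-like cells, where Hmox1 stood at 2802 CPM in the Mfn2 library, 1563 CPM in the Rhot1 library and 1549 CPM in the WT library.

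Hmox1 (chr8:75093621-75100589, plus strand), the inducible haem oxygenase, had its highest level in macrophage-like cells in each library. It stood at 2802 CPM (17369 UMIs) in Mfn2, 1563 CPM (9311 UMIs) in Rhot1 and 1549 CPM (10567 UMIs) in WT macrophage-like cells. The Mfn2 level was 1.81 times the WT level (interval 1.77 to 1.85), and the Rhot1 level was 1.01 times the WT level (0.981 to 1.04). The interval of the Rhot1 ratio included 1 over the class, which combines a cluster below WT and a cluster above it. Hmox1 was carried by many cells: 79.0% of Mfn2, 73.1% of Rhot1 and 71.7% of WT macrophage-like cells held at least 1 UMI, and no cell held more than 237. After thinning each cell to 1500 UMIs, which left out 134, 167 and 136 shallower cells, the shares were 63.0% in Mfn2, 51.7% in Rhot1 and 51.7% in WT macrophage-like cells, beside 8.04%, 4.74% and 5.45% in thinned tumour-like cells. Of the macrophage-like cells left out, 6 Mfn2 and 5 Rhot1 cells were of cluster 2 and the rest of those libraries were of cluster 10. Thinning therefore changed the mix of these clusters. When each library was clustered alone the Mfn2 over WT log2 ratio was 0.37, below the 1.5-fold line, where the joint clustering gave 0.85. In that setting 472 of the 1273 Mfn2 macrophage-like cells fell into a cluster left unnamed, against 0 Rhot1 and 0 WT cells. With unnamed clusters assigned to their best-scoring class, a setting added after the data were seen, the log2 ratio was 0.78.

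Hmox1 was higher in Mfn2 than in WT cells in both macrophage-like clusters and in cluster 15, and the size varied. In cluster 2 the level was 2966 CPM in Mfn2, 1519 CPM in Rhot1 and 1594 CPM in WT cells, which gave ratios of 1.86 (1.81 to 1.91) and 0.953 (0.923 to 0.983) to WT. In cluster 10 it was 2367 CPM in Mfn2, 1755 CPM in Rhot1 and 1416 CPM in WT cells, with ratios of 1.67 (1.59 to 1.76) and 1.24 (1.17 to 1.32). In the interferon-high cluster 15, with 80, 147 and 116 cells in the Mfn2, Rhot1 and WT libraries, it was 3026, 946 and 2190 CPM. The Rhot1 ratio there was 0.432 (0.391 to 0.477), on the other side of WT from cluster 10, and the Mfn2 ratio was 1.38 (1.27 to 1.5). In cluster 15, 1 cell held 162 of 1088 Mfn2, 114 of 635 Rhot1 and 223 of 1059 WT UMIs of Hmox1. The share of its cells with an Hmox1 UMI was 67.5% in Mfn2, 57.1% in Rhot1 and 51.7% in WT, so by share Rhot1 was not below WT.

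**Figure D2:**
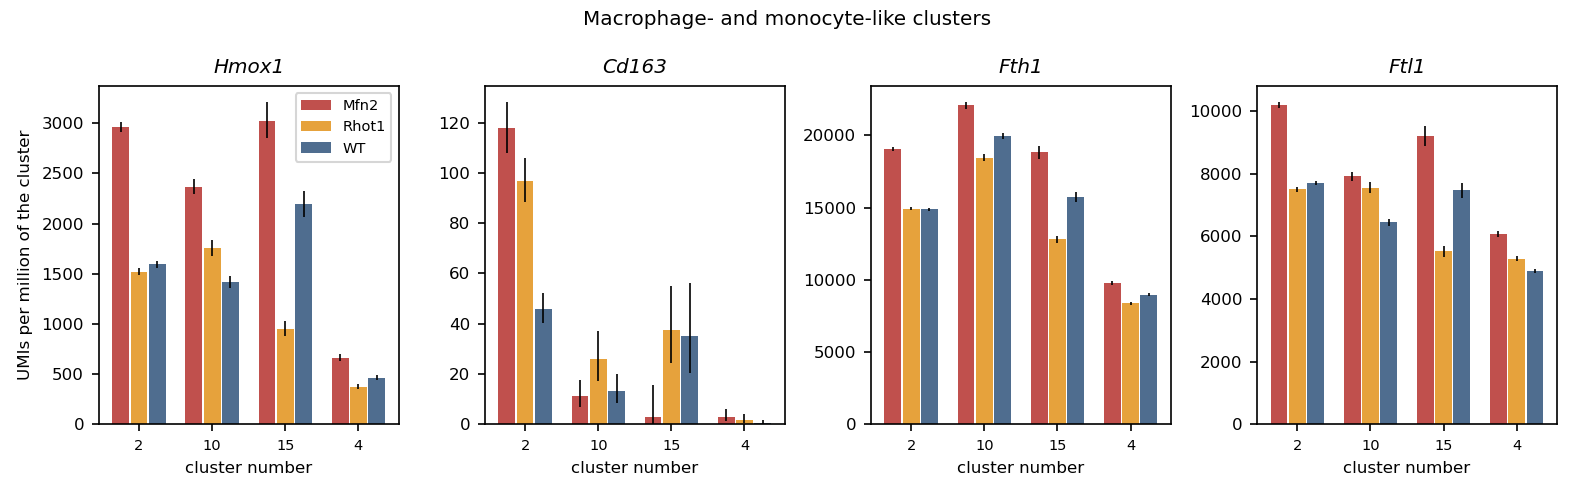
Levels of Hmox1, Cd163, Fth1 and Ftl1 in macrophage-like clusters 2 and 10, the interferon-high cluster 15 and the monocyte-like cluster 4, in CPM of the cluster; bars are 1 library each with exact 95% Poisson intervals. The Mfn2 bar of Hmox1 is the tallest in all 4 clusters, at 2966, 2367, 3026 and 663 CPM. Cd163 is highest in cluster 2 in each library. It has lower bars for cluster 10, at 11.1, 25.8 and 13.3 CPM in the Mfn2, Rhot1 and WT libraries. For cluster 15 its Rhot1 and WT bars are at 37.3 and 35.2 CPM.

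In monocyte-like cells Hmox1 stood at 663 CPM in Mfn2, 374 CPM in Rhot1 and 463 CPM in WT cells, with ratios to WT of 1.43 (1.34 to 1.54) and 0.809 (0.748 to 0.874), neither past 1.5-fold. In neutrophil-like cells it stood at 353, 289 and 299 CPM in the Mfn2, Rhot1 and WT libraries, and the interval of the Rhot1 ratio, 0.823 to 1.13, included 1. The order of these classes was the same in the 3 libraries, with macrophage-like cells first, then monocyte-like, neutrophil-like and, far below, tumour-like and T cell-like cells. T cell-like cells held 85.4, 30.8 and 42.0 CPM in the Mfn2, Rhot1 and WT libraries. Of their UMIs, 33 of 46 in Mfn2, 3 of 13 in Rhot1 and 17 of 38 in WT lay in 1 cell, so no order is given between them and the tumour-like cells.

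Tumour-like cells had 78.9 CPM of Hmox1 in the Mfn2 library, 41.1 CPM in the Rhot1 library and 45 CPM in the WT library, from 7620, 4004 and 3542 UMIs. The Mfn2 level was 1.75 times the WT level (1.69 to 1.83), and Hmox1 was the 1 gene of the 6 that reached 10 CPM there to pass 1.5-fold, beside 1.44% of all genes higher and 1.12% lower. In the Rhot1 comparison 0 of the 6 passed, beside 0.957% of genes higher and 0.788% lower, and the Hmox1 ratio was 0.913 (0.873 to 0.956). Over the 8 tumour-like clusters the Mfn2 over WT ratio was above 1 in 7 and ran between 0.709 in the interferon-high cluster 14 and 2.51 in the shallow cluster 12. The highest level was in cluster 8, led by the hypoxia-induced genes Adm and Ndrg1, with 235 CPM in Mfn2, 206 CPM in Rhot1 and 117 CPM in WT cells. Both ratios passed 1.5-fold in that cluster, at 2.01 (1.89 to 2.13) for the Mfn2 library and 1.76 (1.64 to 1.89) for the Rhot1 library. The Rhot1 ratio over the whole class lay below 1 although it was above 1 in 6 of the 8 clusters; cluster 8 held 389 Rhot1 cells against 707 WT cells.

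RNA of macrophage markers was measured in the tumour-like cells and is given beside their Hmox1. All 10 macrophage markers were detected there, and their summed level was 141 CPM in Mfn2, 165 CPM in Rhot1 and 139 CPM in WT cells, which was 0.670%, 0.674% and 0.614% of their level in macrophage-like cells. Hmox1 in tumour-like cells was 2.82%, 2.63% and 2.90% of its macrophage-like level in the Mfn2, Rhot1 and WT libraries, and Cd163 was 0.445%, 0.504% and 0.505%. The part of such RNA in the tumour-like Hmox1 difference was not tested.

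Cd163 (chr6:124304656-124330527, plus strand) encodes the macrophage receptor that takes up haemoglobin bound to haptoglobin. Its level in macrophage-like cells was 88.4 CPM (548 UMIs) in Mfn2, 83.5 CPM (497 UMIs) in Rhot1 and 37.7 CPM (257 UMIs) in WT cells. The ratios to WT were 2.35 (2.02 to 2.73) and 2.22 (1.90 to 2.59), so here both libraries lay above WT. The share of macrophage-like cells with a UMI was 9.90% in Mfn2, 9.61% in Rhot1 and 7.14% in WT cells, and the highest single cell held 40, 27 and 22 UMIs. After thinning, 6.50% of Mfn2, 5.83% of Rhot1 and 3.42% of WT macrophage-like cells held a UMI. Thinned tumour-like cells, which should lack the gene, held one in 0.0532%, 0.0898% and 0.0470% of cells.

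Within the macrophage-like class nearly all Cd163 lay in cluster 2, with 529 of 548 Mfn2, 468 of 497 Rhot1 and 234 of 257 WT UMIs of the macrophage-like class. The level in that cluster was 118 CPM in Mfn2, 96.8 CPM in Rhot1 and 45.9 CPM in WT cells. In cluster 10 it was 11.1, 25.8 and 13.3 CPM from 19, 29 and 23 UMIs in the Mfn2, Rhot1 and WT libraries, and the Mfn2 interval of the ratio, 0.431 to 1.61, included 1. In the interferon-high cluster 15, outside the class, it was 2.78 CPM in Mfn2, 37.3 CPM in Rhot1 and 35.2 CPM in WT cells, from 1, 25 and 17 UMIs. In that cluster 1 cell held 12 of the 25 Rhot1 UMIs and 1 cell held 12 of the 17 WT UMIs. Monocyte-like cells held 7, 5 and 1 UMIs. Of 8 classes, 2 reached 10 CPM in a library: the macrophage-like class, and the B cell-like class through 1 UMI in 17 Rhot1 cells.

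Slc48a1 (chr15:97778520-97792692, plus strand) encodes HRG1, which moves haem out of the phagolysosome into the cytosol. In macrophage-like cells it stood at 135 CPM in Mfn2, 106 CPM in Rhot1 and 91.6 CPM in WT cells. The Mfn2 ratio was 1.48 (1.33 to 1.64), just under the 1.5-fold line, and the Rhot1 ratio was 1.16 (1.04 to 1.30). In cluster 2 alone the Mfn2 ratio was 1.54 (1.37 to 1.73), with 151 CPM in Mfn2 and 98.5 CPM in WT cells. Tumour-like cells held 55.7 CPM in Mfn2, 51.3 CPM in Rhot1 and 52.9 CPM in WT cells, a narrow range with ratios of 1.05 and 0.969.

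Blvrb (chr7:27447978-27466144, plus strand) encodes biliverdin reductase B, a flavin reductase that also reduces biliverdin isomers other than the one formed by haem oxygenase. Its macrophage-like level was 395 CPM in Mfn2, 412 CPM in Rhot1 and 385 CPM in WT cells, with ratios of 1.03 (0.970 to 1.08) and 1.07 (1.01 to 1.13). Neither ratio passed 1.5-fold. In neutrophil-like cells Blvrb was at 64.8 CPM (134 UMIs) in Mfn2, 58.7 CPM (53 UMIs) in Rhot1 and 38.1 CPM (49 UMIs) in WT cells, past 1.5-fold in both comparisons, with intervals of 1.22 to 2.41 and 1.03 to 2.32. In those cells 21.2% of all genes were higher in the Mfn2 library and 9.25% lower, and 11.5% were higher in the Rhot1 library and 11.9% lower, so 1 higher member of 9 is near the share of all genes.

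Fth1 (chr19:9980598-9985098, plus strand) and Ftl1 (chr7:45457944-45459884, minus strand) encode the heavy and light chains of ferritin; the heavy chain oxidises iron and the light chain helps to hold the mineral core. Fth1 was at 19889 CPM in Mfn2, 15579.8 CPM in Rhot1 and 16177 CPM in WT macrophage-like cells, and Ftl1 was at 9571, 7519.8 and 7387 CPM. The Mfn2 ratios were 1.23 (1.22 to 1.24) for Fth1 and 1.30 (1.28 to 1.31) for Ftl1, and the Rhot1 ratios were 0.963 (0.955 to 0.972) and 1.02 (1.01 to 1.03). Neither chain passed 1.5-fold in either library. With each library clustered alone the Mfn2 log2 ratio of Fth1 was -0.15, on the other side of WT, and that of Ftl1 was 0.10.

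In tumour-like cells the chains differed from each other. Fth1 was at 8585 CPM in Mfn2, 6203 CPM in Rhot1 and 6743 CPM in WT cells, with a Mfn2 ratio of 1.27 (1.27 to 1.28), and it lay above 1 in all 8 tumour-like clusters, between 1.02 and 1.48. Ftl1 was at 752 CPM in Mfn2, 653 CPM in Rhot1 and 754 CPM in WT tumour-like cells, with ratios of 0.998 (0.987 to 1.01) and 0.866 (0.856 to 0.876). In neutrophil-like cells Fth1 stayed between 20993 and 22065 CPM in the 3 libraries. Ftl1 was lower in Mfn2 neutrophil-like cells, at 3029.6 CPM against 4007 CPM in WT cells, a ratio of 0.756 (0.729 to 0.785). Processed copies of both genes have rows of their own: Ftl1-ps1 held 884, 807 and 949 UMIs and Fth1-ps held 1610, 985 and 1279 UMIs in the Mfn2, Rhot1 and WT libraries. These copies were small beside the 161590 Ftl1 and 1073603 Fth1 UMIs of the Mfn2 library, and reads shared with them could not be assigned here.

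**Figure D3:**
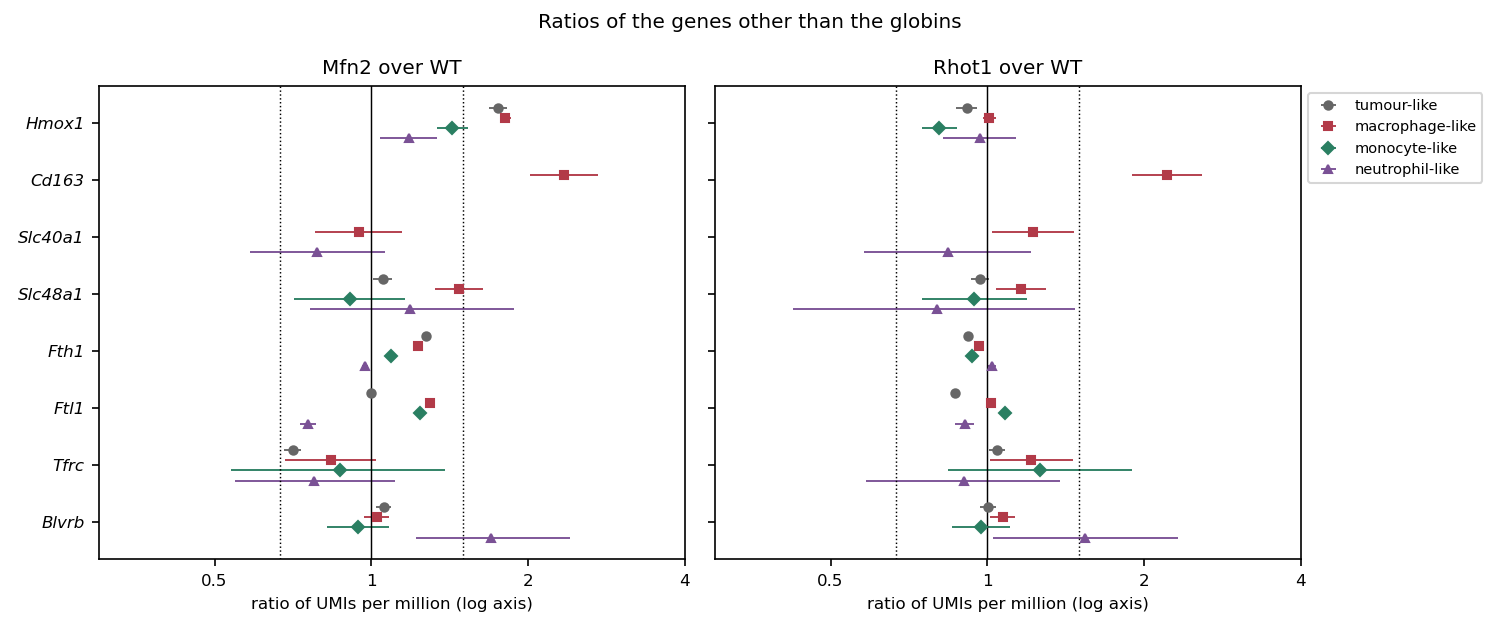
Ratio of the Mfn2 and Rhot1 libraries to WT for the 8 genes other than the globins, on a log axis, in 4 cell classes; points are ratios of CPM, bars are exact 95% intervals, dotted lines mark 1.5-fold and genes under 10 CPM are not drawn. Hmox1 lies past the line in macrophage-like and tumour-like cells of the Mfn2 library, and Cd163 lies past it in macrophage-like cells of both libraries.

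Tfrc (chr16:32608920-32632794, plus strand) encodes transferrin receptor, the main route of iron entry. In tumour-like cells it stood at 53.7 CPM in Mfn2, 79.4 CPM in Rhot1 and 76.0 CPM in WT cells. The Mfn2 ratio was 0.706 (0.680 to 0.733), which is short of 1.5-fold, and the Rhot1 ratio was 1.04 (1.01 to 1.08). The Mfn2 ratio was below 1 in each of the 8 tumour-like clusters, between 0.546 in cluster 0 and 0.884 in cluster 6, and it passed 1.5-fold in 3 of them. Side by side in Mfn2 tumour-like cells, the ratio to WT was 0.706 for Tfrc, 1.27 for Fth1 and 0.998 for Ftl1. Any part of the loop sites in these mRNA levels was not tested. In macrophage-like cells Tfrc was at 28.6 CPM in Mfn2, 41.5 CPM in Rhot1 and 34.2 CPM in WT cells, and the Mfn2 interval, 0.684 to 1.02, included 1.

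Slc40a1 (chr1:45908068-45926523, minus strand) encodes ferroportin, the only known iron exporter of mammals. It was nearly confined to neutrophil-like and macrophage-like cells among the larger classes. Neutrophil-like cells held 50.7 CPM (105 UMIs) in Mfn2, 54.3 CPM (49 UMIs) in Rhot1 and 64.5 CPM (83 UMIs) in WT cells, and both intervals, 0.585 to 1.06 and 0.579 to 1.21, included 1. Macrophage-like cells held 32.6 CPM in Mfn2, 42.1 CPM in Rhot1 and 34.4 CPM in WT cells, with ratios of 0.946 (0.780 to 1.15) and 1.22 (1.02 to 1.47). In tumour-like cells it was at 0.228, 0.277 and 0.241 CPM, and in T cell-like cells it had 0 UMIs in all 3 libraries. The upper ends of the intervals for those 0 counts were 6.85, 8.74 and 4.08 CPM in the Mfn2, Rhot1 and WT libraries.

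Hba-a1 (chr11:32283511-32284465, plus strand) and Hbb-bs (chr7:103826534-103828096, minus strand) encode adult alpha and beta globin and are made by the red cell lineage. Their mRNA was higher in the macrophage-like cells of the Mfn2 and Rhot1 libraries, but it came from very few cells. Hba-a1 stood at 74.5 CPM (462 UMIs) in Mfn2, 55.6 CPM (331 UMIs) in Rhot1 and 3.23 CPM (22 UMIs) in WT macrophage-like cells. Hbb-bs stood at 210.5 CPM (1305 UMIs), 180.5 CPM (1075 UMIs) and 7.33 CPM (50 UMIs). The Hbb-bs ratios were 28.7 (21.7 to 38.9) for the Mfn2 library and 24.6 (18.5 to 33.4) for the Rhot1 library. Summed over all globin genes, 1 cell held 1077 of the 2307 globin UMIs of Mfn2 macrophage-like cells, 1 cell held 1597 of the 1806 of Rhot1 and 1 cell held 47 of the 106 of WT. Without cells of 10 or more globin UMIs, 8 in Mfn2, 3 in Rhot1 and 2 in WT, the log2 ratios of Hbb-bs were 3.20 for Mfn2 and 2.20 for Rhot1, against 4.84 and 4.62 with them. Those of Hba-a1 were 2.36 and 2.02 without these cells, against 4.53 and 4.11 with them, and the gene was then below 10 CPM in each library.

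Hba-a2, which was 99.8% identical to Hba-a1 over 538 aligned bases of mRNA, held 749, 438 and 276 UMIs in the Mfn2, Rhot1 and WT libraries, and Hbb-bt, 92.7% identical to Hbb-bs, held 459, 406 and 109. Reads cannot be assigned with certainty between Hba-a1 and Hba-a2, so the sum over all globin genes was used for the spread over cells. Over all kept cells, 12% of Mfn2 (interval 11.4 to 12.7), 7.17% of Rhot1 (6.65 to 7.72) and 3.78% of WT cells (3.40 to 4.2) held a globin UMI. Most of these held just 1: 959 of the Mfn2, 582 of the Rhot1 and 313 of the WT cells. At the other end, 21 Mfn2, 7 Rhot1 and 8 WT cells held 10 or more, and 7, 2 and 2 held 100 or more. At least 50% of the globin UMIs of kept cells lay in 4 Mfn2, 2 Rhot1 and 2 WT cells. Over all barcodes the Mfn2, Rhot1 and WT libraries held 19049, 6912 and 5101 globin UMIs. Of these, 73.6%, 49.2% and 71.0% lay in barcodes removed by the filter or the doublet call, which this spread leaves out.

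**Figure D4:**
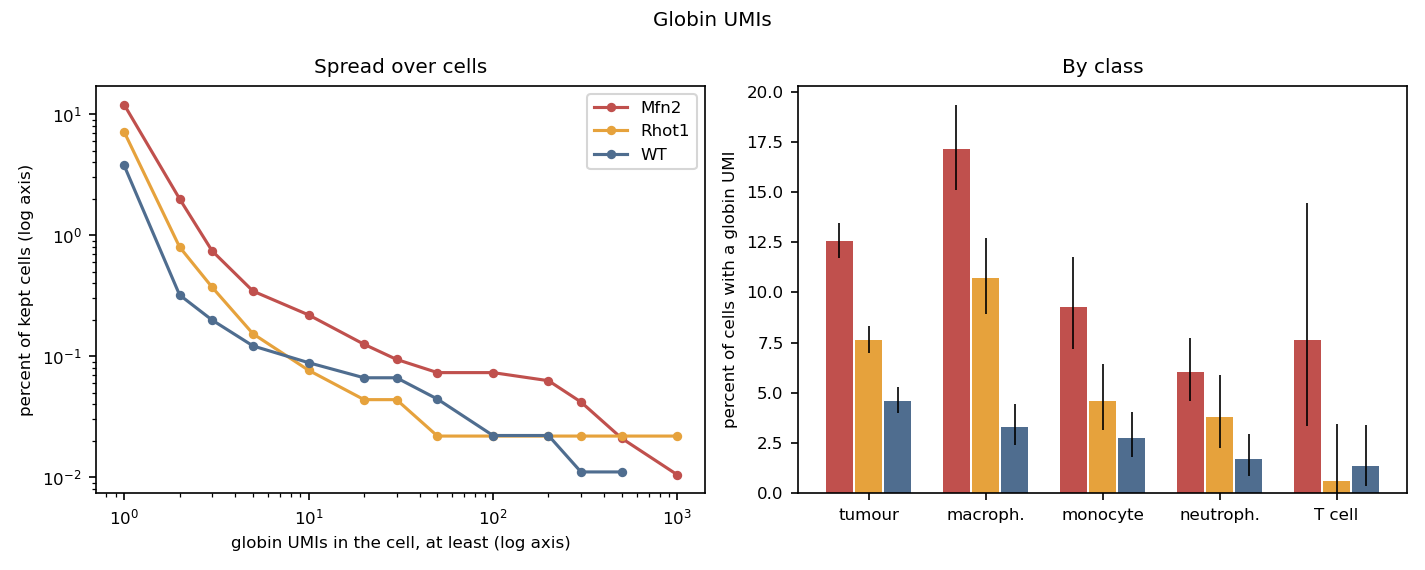
Left, percent of kept cells holding at least a given number of globin UMIs, both axes logarithmic, for the Mfn2, Rhot1 and WT libraries. Right, percent of cells of 5 classes with a globin UMI, with exact 95% binomial intervals; the Mfn2 bar is the tallest in each class, at 17.1% in macrophage-like and 12.6% in tumour-like cells.

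The share of cells with a globin UMI was highest in the Mfn2 library in each of the 5 classes drawn, before and after thinning to 1500 UMIs. The Rhot1 share lay above WT in 4 of them and below it in T cell-like cells, at 0.629% of Rhot1 against 1.35% of WT cells. After thinning it also lay below WT in neutrophil-like cells, at 1.23% of Rhot1 against 1.56% of WT cells, with intervals of 0.150 to 4.39 and 0.323 to 4.5. Cells with a globin UMI made up 12.6% of Mfn2, 7.64% of Rhot1 and 4.62% of WT tumour-like cells, cells that should lack the gene, at median depths of 15378, 16134 and 16832.5 UMIs. They made up 17.1%, 10.7% and 3.29% of macrophage-like cells at median depths of 4079, 4803 and 4338 UMIs. Thinned to 1500 UMIs, the shares were 1.67%, 0.808% and 0.682% in tumour-like cells and 8.08%, 3.56% and 1.67% in macrophage-like cells of the Mfn2, Rhot1 and WT libraries. Globin UMIs in cells with fewer than 10 came to 12.5 CPM in Mfn2, 6.75 CPM in Rhot1 and 3.5 CPM in WT cells over all classes, and to 47.3, 27.4 and 6.90 CPM in macrophage-like cells. The other myeloid classes were also above the level over all classes, which is mostly that of tumour-like cells at 9.16, 5.03 and 2.82 CPM in the Mfn2, Rhot1 and WT libraries. Monocyte-like cells stood at 28.5, 13.3 and 8.80 CPM and neutrophil-like cells at 29.5, 26.6 and 10.1 CPM, so in WT both lay above the macrophage-like cells. NK cell-like cells, which are not myeloid, also lay above that level, at 18.5, 7.35 and 5.70 CPM from 3, 2 and 2 UMIs. T cell-like cells did not in every library. These levels are per UMI and not per cell. At full depth 9.28%, 4.60% and 2.77% of monocyte-like and 6.03%, 3.78% and 1.71% of neutrophil-like cells held a globin UMI, below the tumour-like shares. The part of free RNA in these levels was not tested.

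Among the 13 macrophage-like cells with 10 or more globin UMIs, 8 were in cluster 2 and 5 in cluster 10. Their own Hmox1 summed to 6649 CPM (interval 5772 to 7621) in the 8 Mfn2 cells, 5248 CPM (4106 to 6609) in the 3 Rhot1 cells and 5438 CPM (4223 to 6894) in the 2 WT cells. Macrophage-like cells with no globin UMI stood at 2556 CPM in Mfn2, 1566 CPM in Rhot1 and 1523 CPM in WT cells. The 13 cells did not behave alike. The WT cell with 47 globin UMIs and the Rhot1 cell with 1597 had 0 Hmox1 UMIs. All 68 Hmox1 UMIs of the WT cells lay in 1 cell, and 65 of the 72 of the Rhot1 cells lay in 1 cell. The Mfn2 cells with 45 and 11 globin UMIs held 62 and 60 of 206. The intervals do not cover this spread between cells. Macrophage-like cells with 1 to 9 globin UMIs stood at 3778 CPM in 210 Mfn2, 1480.3 CPM in 114 Rhot1 and 1979 CPM in 40 WT cells, above the globin-free cells in the Mfn2 and WT libraries. In the Rhot1 library its interval, 1395 to 1569.8 CPM, included the level of the globin-free cells.

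Genes of the red cell lineage other than the globins had few UMIs in the kept cells richest in globin. Globin made up 69.4% of the UMIs of a Rhot1 tumour-like cell with 308 genes. It made up 45.3% in a Mfn2 cell of the unnamed cluster 11 and 31.6% in a Rhot1 macrophage-like cell. Whether these were red cells was not tested. Of the 12 erythroid genes, 11 were matched. In cells with 100 or more globin UMIs, Alas2, the erythroid enzyme that starts haem synthesis, had 13, 7 and 4 UMIs in the Mfn2, Rhot1 and WT libraries. The erythroid genes summed to 429, 3214 and 115 CPM in those cells, from 26, 21 and 4 UMIs in 7, 2 and 2 cells. In cells with fewer than 10 globin UMIs they summed to 14.2, 14.5 and 11.7 CPM. Most erythroid UMIs over all kept cells were of 1 gene, Bpgm, with 1130 of 1626 in Mfn2, 1204 of 1682 in Rhot1 and 1062 of 1263 in WT. The ratio of Hba-a1 to Hbb-bs UMIs over all kept cells was 0.369 in Mfn2, 0.335 in Rhot1 and 0.435 in WT cells.

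In neutrophil-like cells the globins were counted as lower in both comparisons, but 1 WT cell decided this. Hbb-bs had 33 UMIs in Mfn2, 12 in Rhot1 and 61 in WT neutrophil-like cells, and 54 of the WT UMIs lay in 1 cell. With the cell of most UMIs left out in each library, the log2 ratio was 1.51 for Mfn2 and 1.03 for Rhot1, where it was -1.57 and -1.83 with it. In T cell-like cells 64 of the 67 WT globin UMIs likewise lay in 1 cell.

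In monocyte-like cells 7 genes were compared in the Mfn2 library and 1 was higher, Hbb-bs, with 49 UMIs in Mfn2 and 31 in WT cells, beside 4.32% of all genes higher and 3.36% lower. Hbb-bs was at 8.79 CPM in WT monocyte-like cells, so it was compared only through the 19.9 CPM of the Mfn2 library. In the Rhot1 library 0 of 6 passed 1.5-fold, beside 2.98% higher and 2.32% lower. T cell-like cells numbered 105 in Mfn2, 159 in Rhot1 and 296 in WT. Of 8 genes compared in them, 3 were higher and 2 lower in the Mfn2 library, beside 21.2% and 17% of all genes, and 1 was higher and 3 lower in the Rhot1 library, beside 14% and 16.8%. Fth1 was among the higher ones in Mfn2 T cell-like cells, at 6099 CPM against 3794 CPM in WT cells.

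Other genes of the pathway were described by lists, each with its members of highest level. The counts stand beside the shares of all genes past 1.5-fold. In macrophage-like cells these were 2.91% higher and 2.24% lower for the Mfn2 library and 2.55% higher and 1.87% lower for the Rhot1 library. In tumour-like cells they were 1.44% and 1.12% for the Mfn2 library and 0.957% and 0.788% for the Rhot1 library. Haem synthesis had 7 of 8 genes compared in macrophage-like and in tumour-like cells, and 0 passed 1.5-fold in either direction in either library. Alas1, the first enzyme of the pathway outside the red cell lineage, stood at 29.2 CPM in Mfn2, 38.1 CPM in Rhot1 and 37.8 CPM in WT macrophage-like cells. Iron sensing had 5 of 5 genes compared in both classes, also with 0 passing. Fbxl5, which targets iron regulatory protein 2 for degradation, stood at 194 CPM in Mfn2, 131 CPM in Rhot1 and 143 CPM in WT macrophage-like cells, a Mfn2 ratio of 1.35 (1.24 to 1.47).

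Of the haem transport and breakdown list, 5 of 10 genes were compared in macrophage-like cells. Lrp1, the receptor for haem bound to haemopexin, stood at 407 CPM in Mfn2, 386 CPM in Rhot1 and 366 CPM in WT cells, and Hmox2, the constitutive haem oxygenase, at 131, 151 and 139 CPM. Blvra, the main adult biliverdin reductase, stood at 119, 142 and 119 CPM. The 1 gene past 1.5-fold was Hp, the haemoglobin-binding haptoglobin, at 30.6 CPM in Mfn2, 11.4 CPM in Rhot1 and 16.0 CPM in WT cells. In tumour-like cells 4 of the list were compared and 0 passed in either library.

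Of the iron uptake, storage and export partners, 13 of 21 were compared in macrophage-like cells, with 2 higher and 0 lower in the Mfn2 library and 0 higher and 1 lower in the Rhot1 library, beside 2.91% and 2.24% of all genes for Mfn2 and 2.55% and 1.87% for Rhot1. Trf, the iron carrier transferrin, stood at 166 CPM in Mfn2, 212 CPM in Rhot1 and 222 CPM in WT cells, and Slc11a1, an iron transporter of the phagosome, at 95.5, 93.7 and 105 CPM. The genes past the line were picked out after their values were seen. They were Lcn2, the siderophore-binding lipocalin 2, at 18.4 CPM in Mfn2 and 10.6 CPM in WT cells, Slc25a37, mitoferrin 1, at 41.8 CPM in Mfn2 and 24 CPM in WT cells, and Cp, the ferroxidase ceruloplasmin, at 6.21 CPM in Rhot1 and 10.7 CPM in WT cells. Hp and Lcn2 are also neutrophil genes, and the 9 neutrophil markers, all detected, summed to 691 CPM in Mfn2, 362 CPM in Rhot1 and 466 CPM in WT macrophage-like cells; their part in the differences was not tested. In tumour-like cells 10 genes of the list were compared in the Mfn2 library, with Lcn2 higher and Cp lower, and 9 in the Rhot1 library, with Cp lower, beside 1.12% and 0.788% of all genes lower. Cp was at 7.64 CPM in Mfn2, 10.2 CPM in Rhot1 and 30.9 CPM in WT tumour-like cells, and Lcn2 at 11.9, 4.72 and 5.27 CPM.

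The NRF2 targets, antioxidant genes that share a regulator with Hmox1, had 8 of 9 genes compared in macrophage-like cells. In the Mfn2 library 3 were higher and 0 lower, beside 2.91% and 2.24% of all genes. Gclm, a subunit of the enzyme that starts glutathione synthesis, stood at 137 CPM in Mfn2, 100.4 CPM in Rhot1 and 85.3 CPM in WT cells, and Slc7a11, the cystine importer, at 111, 88.5 and 66.6 CPM. The third, Gclc, the partner subunit of Gclm, stood at 35.3, 27.7 and 20.2 CPM. Txnrd1, thioredoxin reductase 1, did not pass, at 122 CPM in Mfn2, 123 CPM in Rhot1 and 98.2 CPM in WT cells. The median log2 ratio was 0.36 over the 8 in the Mfn2 library, against 0.02 over all genes, and in the Rhot1 library 0 of the 8 passed and the median was 0.20, against 0.08. In tumour-like cells 0 of 7 passed in either library.

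Of the regulators of these genes 7 of 8 were compared in macrophage-like and 6 in tumour-like cells, and 0 passed in either library. Nfe2l2, which encodes NRF2, stood at 181 CPM in Mfn2, 170.4 CPM in Rhot1 and 186 CPM in WT macrophage-like cells, and Bach1, a repressor of Hmox1, at 111, 101 and 112 CPM. In tumour-like cells Nfe2l2 stood at 175 CPM in Mfn2, 164 CPM in Rhot1 and 129.9 CPM in WT cells. Of 8 markers of iron-recycling macrophages 2 were compared in macrophage-like cells, and Vcam1 was lower in Mfn2, at 28.4 CPM against 45.3 CPM in WT cells, while 0 passed in Rhot1. Spic, the factor known to direct the red pulp macrophage programme, stood at 3.06 CPM in Mfn2, 2.52 CPM in Rhot1 and 2.64 CPM in WT macrophage-like cells.

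The genes whose levels were most alike were found by Pearson's r of log2(CPM + 5), a description in which points share libraries and depth. Over 20 class and library points and 5496 genes, Ninj1 (0.96), Atp6v1a (0.95) and Plin2 (0.95) were most like Hmox1. G530011O06Rik (0.97), Folr2 (0.96) and Cbr2 (0.95) were most like Cd163, and Mmp9 (0.93), Fnip1 (0.88) and Wfdc17 (0.86) were most like Slc40a1. Over the 12 points of clusters 2, 4, 10 and 15, Prdx1 (0.94), Ftl1 (0.93) and Fth1 (0.92) were most like Hmox1 among 4279 genes, and both ferritin chains are members of this group of 10. Lyve1 (0.97), Tnfsf12 (0.93) and Psd3 (0.93) were most like Cd163 there, and Pdlim4 (0.98), Nceh1 (0.97) and Syngr1 (0.96) were most like Slc40a1.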

How the data were processed

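Single-cell RNA of tumours and infiltrating cells was measured in 3 libraries, 1 per genotype. The authors deposited raw UMI counts per gene and barcode, and per the file headers Cell Ranger 7.0.0 made them; mm10 is the build in the submitters' processing notes, and no source used here names the annotation. GENCODE M21 held 94.1% of the 55357 gene identifiers.

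Barcodes with under 300 genes or over 15% mitochondrial UMIs were dropped, and Scrublet calls (2.36 to 3.12% of cells) were removed. The remaining 27739 cells were clustered jointly (scanpy 1.11.5, leidenalg 0.10.2; 2000 variable genes, of which the 8 that were members or globins were left out, 30 components, 15 neighbours, resolution 1). A cluster took the name of its best-scoring marker list unless its leading genes marked another class. It also stayed unnamed if that score was under 0.5, or if it was shallow with no marker of that list among its leading genes. UMIs were summed by class and library, never tested over cells. Intervals are exact Poisson for CPM, exact Clopper-Pearson for shares and exact conditional binomial for ratios. For calls, a count below 3 was raised to a limit of 3 counts. Calls were also run on simulated Poisson counts. These hold no spread between cells, mice or libraries, so they cannot show how such spread affects the calls. All 10 members are named, with up to 4 genes of each list by level in the class; list genes past 1.5-fold outside that rule were chosen after their values were seen.

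The genes, lists and comparisons were chosen with earlier results of these data known. Settings varied were the filters, doublets, resolution, variable genes, clustering by library, thinning, scaling, cell weighting, fold and minimum level.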

Additional observations from a re-analysis of the deposited data

Results flagged for a closer look

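Globin ratios lay on opposite sides of WT in different classes of the same comparison; these differences between classes were not tested, since each rests on 1 library per group. For the Mfn2 library the Hba-a1 log2 ratio was 4.53 in macrophage-like and -1.31 in neutrophil-like cells, and the Hbb-bs log2 ratio was 4.84 in macrophage-like, 1.18 in monocyte-like and -1.57 in neutrophil-like cells. For the Rhot1 library Hba-a1 was at 4.11 in macrophage-like and -1.49 in neutrophil-like cells, and Hbb-bs at 4.62 and -1.83. The neutrophil-like values turn to the other side when the cell with most UMIs is left out.

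Cd163 lay above WT in cluster 2 of the Mfn2 library, with a log2 ratio of 1.36, and below WT in the interferon-high cluster 15, with a log2 ratio of -2.08, a difference that was not tested. The cluster 15 value compares 1 UMI in 80 Mfn2 cells, raised to the limit of 3 counts, with 17 UMIs in 116 WT cells, of which 12 lay in 1 cell.

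Barcodes removed by the filter or the doublet call held 73.6% of the globin UMIs in the Mfn2 library, 49.2% in Rhot1 and 71.0% in WT. They had 2669.6 CPM of globin in Mfn2, 757 in Rhot1 and 749 in WT barcodes. Of those with 100 or more globin UMIs, 21 Mfn2, 3 Rhot1 and 6 WT barcodes had failed the filter, each with fewer than 300 genes, and globin made up 71.1%, 78.7% and 66.3% of their UMIs.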

How the results depend on the processing

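No paired analysis was possible because each group is 1 library. In macrophage-like cells the count of members past 1.5-fold stayed within 1.5 times of 4 (Mfn2) and 3 (Rhot1) under every setting run, with Cd163 higher in all of them; Hmox1 in Mfn2 left the list in 1 setting, each library clustered alone, where Slc40a1 was lower. Elsewhere small counts moved, and the cause was not tested.

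In tumour-like cells the Mfn2 count of 1 was 2 with doublets kept, resolution 0.5 or 2, members among the variable genes, each library clustered alone (also with unnamed clusters by their best class, a setting added after the data were seen), thinning, unnamed clusters added or clusters weighted alike, 3 at a lower fold line and 4 with no minimum; Hmox1 was higher in each. The tumour-like Rhot1 count of 0 was 2 with clusters weighted alike or no minimum. In monocyte-like cells the Mfn2 count of 1 was 3 at resolution 0.5 or with no minimum, 2 at the lower fold line and 0 at a minimum of 50 CPM, and the Rhot1 count of 0 was 1 with doublets kept, thinning or the lower fold line, 2 with each library clustered alone, by either naming, and 3 with no minimum. In neutrophil-like cells the Mfn2 count of 3 was 5 at resolution 2 or with members among the variable genes, 6 at the lower fold line and 1 at 50 CPM, and the Rhot1 count of 3 was 1 at 50 CPM. The share of cells with 10 or more globin UMIs, 0.220% in Mfn2 and 0.0766% in Rhot1, was 0.0834% and 0.0242% after thinning, which lowers counts by construction. Weighting clusters alike could not be computed for monocyte-like and neutrophil-like cells.

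Among the log2 ratios past 1.5-fold of genes at 10 CPM or more, those that changed sign under a setting were all globins in neutrophil-like cells. Ratios short of that line or of genes at a lower level could change sign too, as Fth1 in Mfn2 macrophage-like cells did, at -0.15 with each library clustered alone. Hba-a1 in Mfn2 was 1.28 under the stricter filter, 0.94 at resolution 2, 1.43 without cells of 10 or more globin UMIs and 1.32 without the top cell. Hbb-bs in Mfn2 was 1.18, 1.30, 1.55 and 1.51 in the same settings and 0.99 thinned. Hba-a1 in Rhot1 was 1.15, 0.78, 1.248 and 0.93, and 0.25 thinned. Hbb-bs in Rhot1 was 0.92, 0.95, 1.29 and 1.03, and 0.25 thinned. Neutrophil-like cells are shallow, with medians of 1078 to 1291.5 UMIs, which limits their low genes.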
